A study of Mus musculus with 6 samples.

Results

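The genes described here are the G2/M mitotic genes, a set of 45 mouse genes chosen by function: the cyclins and the partners of CDK1, the mitotic kinases, the chromosomal passenger complex, the spindle checkpoint and kinetochore, the factors of mitotic exit, the spindle motors and the cytokinesis machinery. The set was chosen with earlier results of these data known. A gene was taken as measured where a row of the array table is annotated with its symbol alone. Of the 45 genes 42 were measured, each by 1 row, among 30102 genes in all. Ccnb1 had no row under its symbol alone, and the rows of Ccnf and Foxm1 are shared with another symbol each. These 3 genes are left out of every count.

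As background, transcripts of these genes are low in resting and early cycling cells and build up in late S phase and G2. The MuvB complex, together with B-MYB and FOXM1, switches them on at a promoter element called the cell cycle genes homology region, often beside CCAAT boxes bound by NF-Y. The same MuvB core holds them off in resting cells. Their summed level is commonly read as a measure of how many cells of a population are cycling, and mast cells grown from marrow divide in response to interleukin 3 and stem cell factor.

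The arrays measured total RNA of mast cells grown from bone marrow (BMMCs). This primary culture was raised from femur marrow of C57BL/6J mice in medium with interleukin 3 and stem cell factor from CHO-KL supernatant, and was matured for 6 weeks. Ionomycin carries calcium across the membrane and so triggers the release of mast cell granules. The ionomycin group (3 arrays) spent 1 h in Tyrode's buffer with 1 µg/mL ionomycin and the naive group (3 arrays) spent the same time in that buffer alone; both were then washed and kept in culture medium for 3 h, so RNA was taken at 4 h. The labels number the replicates 1 to 3 in each group but do not say that they were separate cultures or animals, so each p-value reflects the spread among the 6 samples at hand and nothing beyond, and that spread may be technical.

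Values are log2 signals as deposited. The array medians lay between 5.88 and 6.03, and arrays correlated with each other at 0.980 to 0.998 over all genes. The first principal component held 52.6% of the variance and set both replicate 1 arrays (scores of -48.0 and -21.2) apart from the other 4 (13.0 to 21.9). Of the 100 genes with the largest weights on it, 26 were G2/M mitotic genes. The second component held 31.9% of the variance and set the naive arrays (-24.7 to -15.5) apart from the ionomycin arrays (10.9 to 31.3). Mast cell transcripts were high on all 6 arrays: Kit, the receptor of stem cell factor, lay between 12.55 and 13.27, Fcer1a, a chain of the IgE receptor, between 13.18 and 13.29, and Cpa3, a granule protease, between 14.16 and 14.31. The signal of 95% of 1771 odorant, taste and vomeronasal receptor genes lay below 6.05, which is used as background. All 42 mitotic genes had a mean above it in their brighter group (63.9% of all genes), and 39 of 42 were above it on all 6 arrays (59.6% of all genes); Bub1, Ttk and Cdc25c were not. For these 3 genes a distance between arrays is given as a bound, computed with each array below 6.05 set to that level.

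The levels of the mitotic genes differed more between replicate 1 and the other replicates than between the groups. Their median level was 9.56 in naive replicate 1 against 7.40 and 7.31 in naive replicates 2 and 3, and 9.10 in ionomycin replicate 1 against 7.21 and 7.06 in ionomycin replicates 2 and 3. In both groups, replicate 1 lay above both other replicates for 41 of 42 genes, where 18.2% of all genes and 24.7% of genes above background did so. The exception was Cenpa. Replicate 1 lay below both others in both groups for 0 of 42 (34.1% of all genes), and at least 2-fold below their mean for 0 of 42 (0.0532% of all genes). The split into replicate 1 and the rest holds 1 array against 2 in each group and was proposed with these data known, so its values are given as a description with no test. In bulk RNA, fewer cycling cells and less mitotic RNA in each cycling cell cannot be told apart.

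The median distance of replicate 1 from the mean of replicates 2 and 3 was 2.50 log2 units in the naive group (5.64-fold) and 1.76 in the ionomycin group (3.39-fold); over all genes it was -0.07 and -0.03. With Bub1, Ttk and Cdc25c at their bounds the medians of the mitotic genes were 2.45 and 1.73. The counts below of 2-fold, 4-fold and smaller distances were then the same. Replicate 1 was at least 2-fold higher for 38 of 42 mitotic genes in the naive group (1.69% of all genes) and for 35 of 42 in the ionomycin group (1.26% of all genes). It was at least 2-fold higher in both groups for 35 of 42 mitotic genes (0.801% of all genes) and at least 4-fold higher in both groups for 17 of 42 (0.186% of all genes). The distance was smaller in the ionomycin than in the naive group for 35 of 42 genes (42.7% of all genes). Replicates 2 and 3 were ordered too, by a smaller step: naive replicate 2 lay above naive replicate 3 for 38 of 42 genes (49.3% of all genes) and ionomycin replicate 2 above ionomycin replicate 3 for 36 of 42 (51.7% of all genes). Both counts use the values as deposited. Cdc25c and Ttk lay below background on these naive arrays, and Bub1, Ttk and Cdc25c on these ionomycin arrays, so their order there is not resolved.

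**Figure D1:**
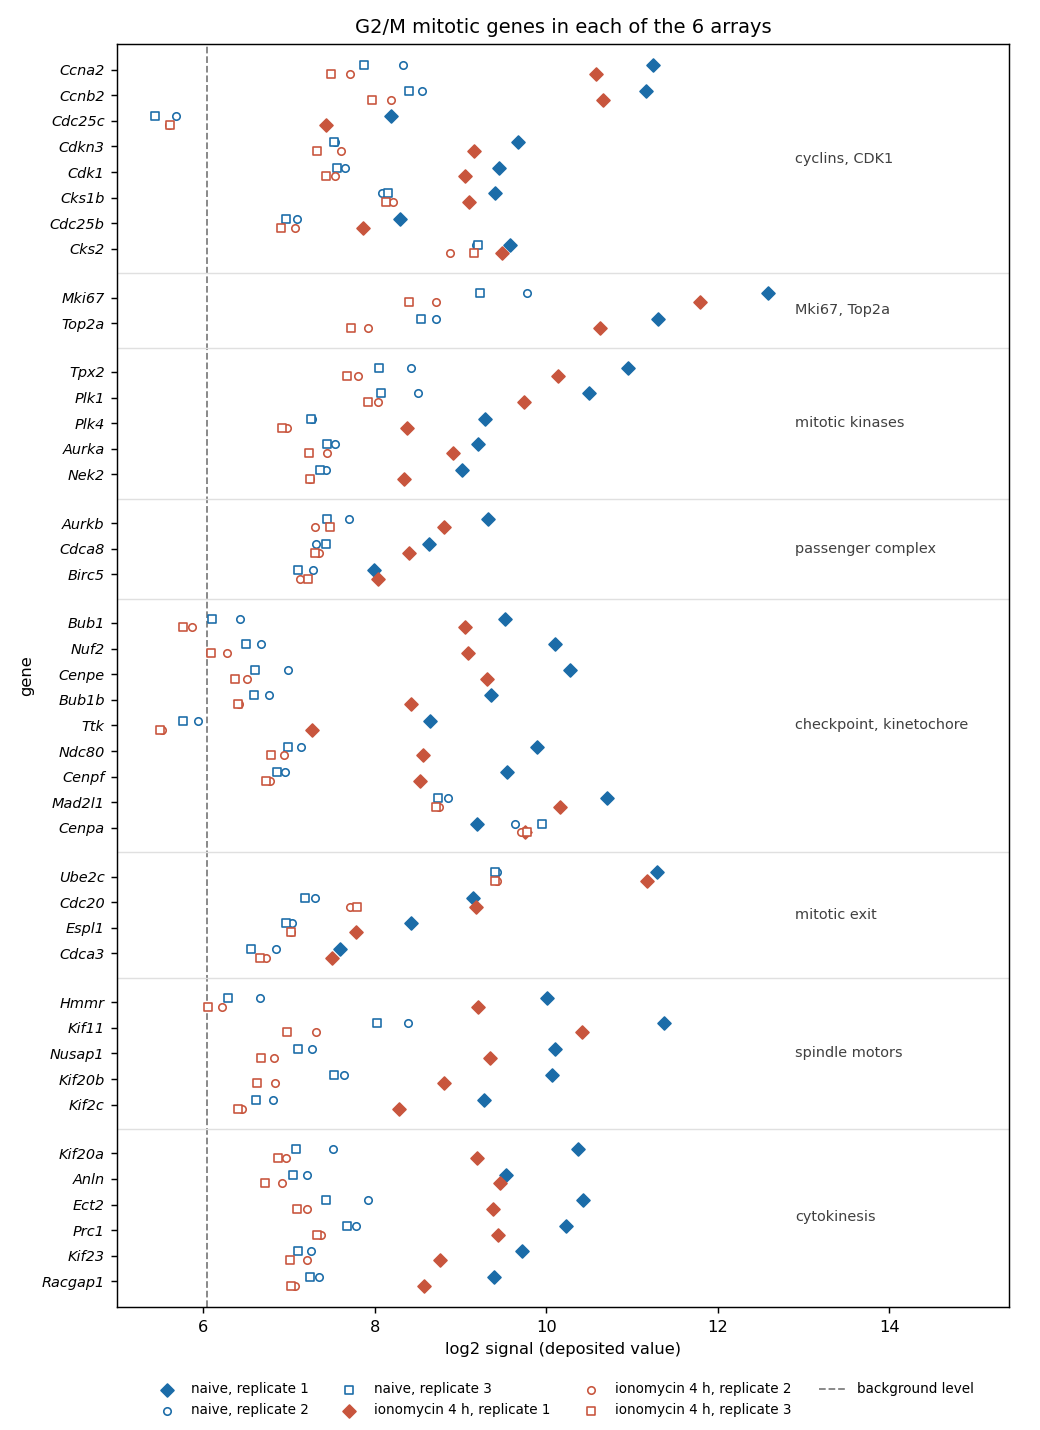
Log2 signal (x axis) of the 42 measured G2/M mitotic genes (rows, grouped by role) on each of the 6 arrays; filled diamonds are replicate 1, open circles replicate 2 and open squares replicate 3, in blue for naive and red for ionomycin, and the dashed line is the background of 6.05. The filled diamonds lie to the right of the open symbols in both groups for every gene except Cenpa.

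**Figure D2:**
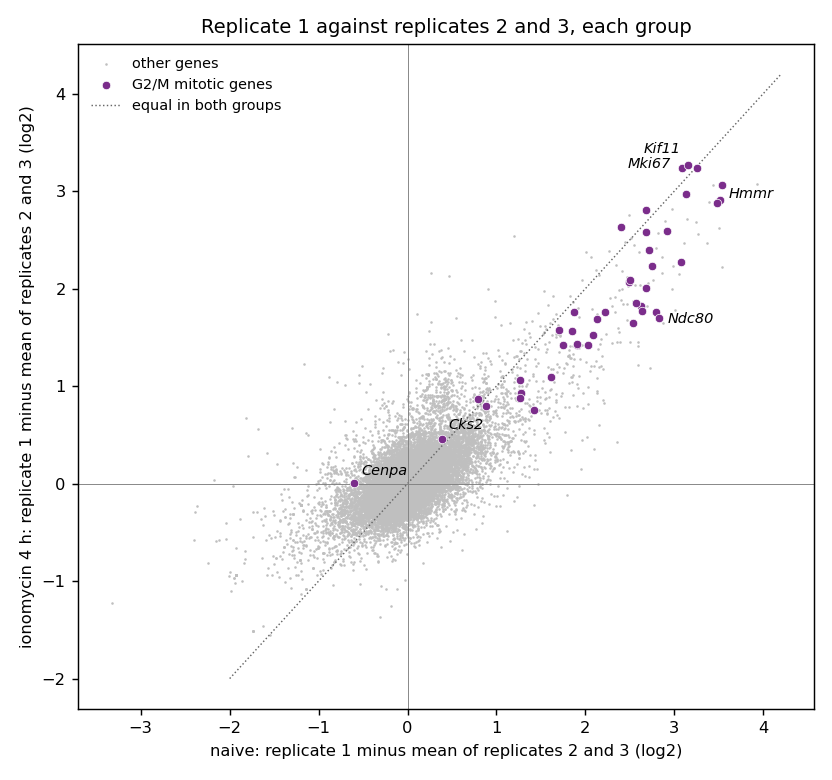
Log2 distance of replicate 1 from the mean of replicates 2 and 3 in the naive group (x axis) and in the ionomycin group (y axis), 1 point per gene, with the 42 mitotic genes in purple and the other genes in grey; the dotted line marks equal distances. The mitotic genes lie at the upper right end of the cloud, most of them below the dotted line, and Cenpa and Cks2 lie nearest to 0.

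Among the cyclins and partners of CDK1, replicate 1 was the highest array of its group for 8 of 8 genes, and at least 2-fold above the mean of the others in both groups for 5. Ccna2, the cyclin of S phase and G2, had levels of 11.24, 8.33 and 7.88 in naive replicates 1, 2 and 3 and of 10.58, 7.71 and 7.49 in ionomycin replicates 1, 2 and 3. Ccnb2, a B-type cyclin that activates CDK1, had 11.16, 8.55 and 8.40, then 10.66, 8.19 and 7.97. Both cyclins stood in the order of replicate 1, 2 and 3 within each group, and every ionomycin array lay below the naive array of its number. Cdk1 itself, the kinase that drives entry into mitosis, was 1.85 log2 units higher in naive replicate 1 and 1.57 in ionomycin replicate 1. Cdc25c, a phosphatase that activates CDK1, was above background on the replicate 1 arrays alone (8.19 and 7.43, against 5.44 to 5.68 on the other 4). Cks2, a small subunit that binds CDK1, had the smallest distance of this role: 9.58, 9.19 and 9.21 in the naive arrays and 9.48, 8.88 and 9.16 in the ionomycin arrays. Its relative Cks1b was further apart, at 1.28 and 0.93 log2 units.

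Mki67 encodes Ki-67, the coat protein of mitotic chromosomes used as a marker of proliferation, and Top2a encodes the topoisomerase that untangles sister chromatids. Mki67 had levels of 12.59, 9.77 and 9.23 in naive replicates 1, 2 and 3 and of 11.79, 8.71 and 8.40 in the ionomycin replicates. Top2a had 11.31, 8.71 and 8.54, then 10.63, 7.92 and 7.72. Replicate 1 of both genes was thus 6.42- to 9.43-fold above the mean of replicates 2 and 3 in each group, and the distance was as large in the ionomycin as in the naive arrays (3.09 and 3.24 log2 units for Mki67, 2.68 and 2.81 for Top2a), unlike most of the set.

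All 5 genes of the mitotic kinase group were at least 2-fold higher in replicate 1 in both groups. Plk1, which matures centrosomes and acts through the whole of mitosis, was 2.22 log2 units higher in naive and 1.76 in ionomycin replicate 1. Tpx2, the activator of Aurora A on the spindle, was 2.71 and 2.40 higher, and Aurka, Aurora A itself, 1.71 and 1.58. Plk4, the kinase of centriole duplication, and Nek2, which separates centrosomes, had distances of 2.02 and 1.62 log2 units in the naive group and 1.42 and 1.09 in the ionomycin group.

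The 3 measured genes of the chromosomal passenger complex, which corrects faulty attachments and later directs cytokinesis, showed smaller distances. Aurkb, its kinase Aurora B, was 1.75 and 1.42 log2 units higher in replicate 1, and Cdca8, which encodes borealin, 1.26 and 1.07. Birc5, which encodes survivin, had levels of 7.99, 7.29 and 7.11 in the naive arrays and 8.04, 7.13 and 7.22 in the ionomycin arrays, a distance of 0.80 and 0.87.

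The spindle checkpoint and kinetochore held genes with large distances and the exception. Bub1, a checkpoint kinase, had levels of 9.52, 6.43 and 6.11 in the naive arrays and 9.05, 5.87 and 5.77 in the ionomycin arrays. Ionomycin replicates 2 and 3 lay below background, so its distance was 3.25 log2 units in the naive group and at least 3.01 (at least 8.03-fold) in the ionomycin group. Cenpe, the motor that carries chromosomes to the spindle equator, had 10.27, 6.99 and 6.61, then 9.31, 6.51 and 6.37. Nuf2, which with Ndc80 forms the complex that grips microtubules, had 10.11, 6.68 and 6.49, then 9.09, 6.28 and 6.09. Cenpe and Nuf2 were thus 7.34- to 11.5-fold higher in replicate 1 of each group, and on the other 4 arrays they lay above background by less than 1 log2 unit.

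Ttk, the kinase MPS1 that starts the checkpoint signal, had levels of 8.65, 5.94 and 5.76 in the naive arrays and 7.27, 5.52 and 5.50 in the ionomycin arrays. Its replicates 2 and 3 lay below background in both groups, so replicate 1 was at least 6.05-fold higher in the naive and at least 2.33-fold higher in the ionomycin group. Ndc80 had a distance of 2.82 log2 units in naive and 1.70 in ionomycin replicate 1. Bub1b, Cenpf and Mad2l1, further members of the checkpoint and outer kinetochore, had distances of 2.68, 2.63 and 1.91 in the naive group and 2.01, 1.77 and 1.43 in the ionomycin group.

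Cenpa encodes the histone H3 variant that marks centromeres. Its levels were 9.19, 9.64 and 9.95 in naive replicates 1, 2 and 3 and 9.75, 9.71 and 9.78 in the ionomycin replicates. Naive replicate 1 was the lowest of the 6 arrays, by 0.60 log2 units against the mean of naive replicates 2 and 3, and the 3 ionomycin arrays were nearly level (SD 0.035). It was the one gene of the set for which replicate 1 was not the highest array of its group, in either group.

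Mitotic exit runs through the anaphase-promoting complex (APC/C), a ubiquitin ligase. Ube2c, its ubiquitin-conjugating enzyme, had levels of 11.29, 9.43 and 9.40 in the naive arrays and 11.18, 9.43 and 9.41 in the ionomycin arrays. Cdc20, the activator of the complex in mitosis, had 9.15, 7.31 and 7.19, then 9.18, 7.71 and 7.79. The groups differed in Ube2c by at most 0.11 log2 units at any number, while Cdc20 lay higher in the ionomycin array at each number. Espl1, the protease separase that cuts cohesin, was 1.42 and 0.76 log2 units higher in replicate 1, and Cdca3, a trigger of mitotic entry, 0.88 and 0.80.

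All 5 spindle genes and all 6 cytokinesis genes were at least 2-fold higher in replicate 1 in both groups. Kif11, the Eg5 motor that pushes spindle poles apart, had levels of 11.37, 8.39 and 8.03 in the naive arrays and 10.42, 7.32 and 6.98 in the ionomycin arrays. Kif20b, a motor that acts in late mitosis, had 10.07, 7.64 and 7.52, then 8.80, 6.84 and 6.63. Hmmr, a spindle assembly factor, had 10.01, 6.67 and 6.28, then 9.20, 6.22 and 6.06. Hmmr showed the largest naive distance of the set (3.53 log2 units, 11.6-fold) and Kif11 the largest in the ionomycin group (3.27, 9.64-fold). Kif2c, a motor that takes microtubules apart, and Nusap1, which bundles them, had distances of 2.57 and 2.92 in the naive group and 1.85 and 2.59 in the ionomycin group.

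Of the cytokinesis genes, Ect2, the exchange factor that activates RhoA at the cleavage furrow, had levels of 10.43, 7.92 and 7.43 in the naive arrays and 9.39, 7.21 and 7.10 in the ionomycin arrays. Kif20a, a midzone motor, was 3.07 and 2.27 log2 units higher in replicate 1, and Anln, the furrow scaffold anillin, 2.40 and 2.64. Prc1, which bundles midzone microtubules, and Kif23 and Racgap1, which form the centralspindlin complex, had distances of 2.50, 2.54 and 2.09 in the naive group and 2.09, 1.65 and 1.52 in the ionomycin group. Anln was among the 7 genes whose distance was not smaller in the ionomycin group.

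The study's own comparison asks which transcripts differ 4 h after ionomycin from naive cells. No mitotic gene passed it in limma over all 6 arrays at an adjusted p of 0.05: 0 of 42 were lower (0.0598% of all genes) and 0 were higher (0.289% of all genes). At an unadjusted p under 0.05 the counts were also 0 lower (5.44% of all genes) and 0 higher (10.2% of all genes). The groups did not separate for any of the 42 genes, in either direction (7.31% of all genes did so lower and 18.9% higher). Replicate 1 lay above both others in both groups for 41 of 42 genes, which makes the groups overlap and widens the SE. These counts of 0 therefore do not show that the levels of the groups were equal. For Kif11, the gene with the largest difference, the fit gave -1.02 ± 1.22 (SE) and an adjusted p of 0.68.

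Matching arrays by replicate number gave another picture. The labels do not say that equal numbers belong together. Over all genes, replicates 2 and 3 matched between the groups no better by number than when crossed. The median difference of the 42 genes, ionomycin minus naive, was -0.44 (0.05 over all genes), and by number it was -0.72, -0.30 and -0.20 for replicates 1, 2 and 3. The ionomycin array was the lower one at all 3 numbers for 31 of 42 genes (16.8% of all genes) and the higher one at all 3 for 1, Cdc20 (35.8% of all genes), or for 0 once each array was centred on its median. With the replicate number as a block in limma, 3 of 42 mitotic genes were lower (0.110% of all genes) and 0 higher (0.395% of all genes). At an unadjusted p under 0.05 the same fit gave 24 lower (9.41% of all genes) and 1 higher (16.0% of all genes).

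The 3 genes that fell in the blocked fit were Kif11, Top2a and Mki67. Kif11 differed by -0.95, -1.07 and -1.05 at replicate numbers 1, 2 and 3, a mean of -1.02 ± 0.05 (SE, n = 3 pairs), or 2.03-fold lower with ionomycin (limma with the block, adjusted p = 0.023). Top2a differed by -0.68, -0.79 and -0.82, a mean of -0.77 ± 0.06, or 1.70-fold lower (adjusted p = 0.033). Mki67 differed by -0.80, -1.06 and -0.83, a mean of -0.90 ± 0.07, or 1.86-fold lower (adjusted p = 0.037). For these genes the replicate 1 pair, whose levels were far above those of the other pairs, differed by about as much as they did.

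Other members did not pass with the block. Kif20b differed by -1.27, -0.80 and -0.89 (mean -0.99, adjusted p = 0.056 with the block), Ttk by -1.38, -0.42 and -0.26 (adjusted p = 0.18) and Ndc80 by -1.32, -0.20 and -0.20 (adjusted p = 0.23). For Ndc80 most of the mean came from the replicate 1 pair. Ttk lay below background in both groups at numbers 2 and 3, so neither the size nor the sign of its differences there is resolved. By its deposited values it is counted among the 31 genes lower at all 3 numbers, and among those of the checkpoint and kinetochore. Ect2 differed by -1.04, -0.72 and -0.34 (adjusted p = 0.11), and Bub1 by -0.47, -0.56 and -0.34 (adjusted p = 0.076), with the ionomycin array below background at numbers 2 and 3. Ccna2 and Ccnb2 differed by -0.56 and -0.43 on average, with adjusted p of 0.072 and 0.070.

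A few members did not share the lower level. Cdc20, singled out after its values were seen, differed by 0.03, 0.40 and 0.60 (adjusted p = 0.18 with the block). Cenpa differed by 0.56, 0.07 and -0.17 and Birc5 by 0.05, -0.16 and 0.11. Ube2c differed by -0.11, 0.00 and 0.00. The 4 genes of mitotic exit and the 3 of the passenger complex included none that was lower at all 3 numbers (16.8% of all genes). The count was 5 of 5 for mitotic kinases, 5 of 5 for spindle genes and 6 of 6 for cytokinesis genes. It was 8 of 9 for checkpoint and kinetochore genes and 5 of 8 for cyclins and partners of CDK1. Some exceptions rested on values near 0, of a size that the normalization can move. Aurkb was at 0.04 at number 3, Cdca8 at 0.04 at number 2 and Ube2c at 0.00 at numbers 2 and 3. The differences between these roles were not tested.

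**Figure D3:**
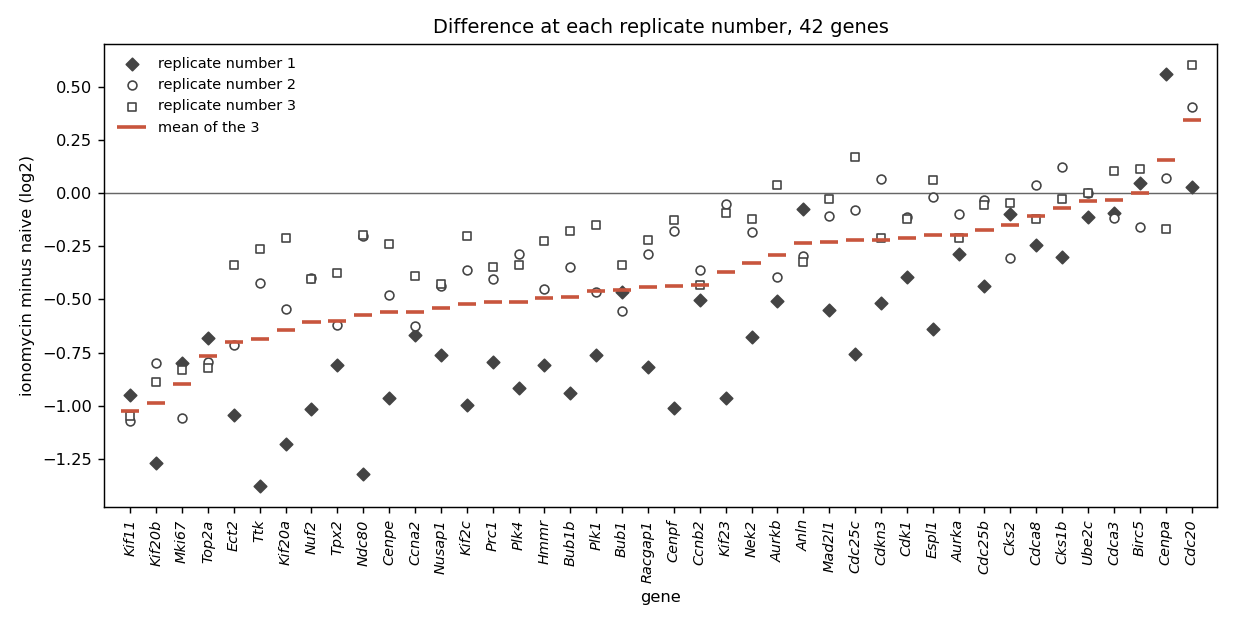
Ionomycin minus naive (y axis, log2) at replicate numbers 1 (filled diamonds), 2 (circles) and 3 (squares) for each of the 42 measured genes (x axis, ordered by the mean of the 3, red bars). Kif11, Kif20b, Mki67 and Top2a lie lowest with Kif11, Mki67 and Top2a the most even of them, and for most other genes the diamond lies below both open symbols.

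The count of called genes changed with the model and with the arrays in the fit. Without both replicate 1 arrays, 3 of 42 genes were lower (Kif20b, adjusted p = 0.018; Top2a, 0.022; Kif11, 0.037; 1.43% of all genes) and 1 was higher (Cdc20, 0.50 log2 units, adjusted p = 0.033; 1.41% of all genes). With a block of 2 levels that sets replicate 1 against replicates 2 and 3, 7 were lower (Kif20b, Top2a, Kif11, Nusap1, Mki67, Ccnb2 and Prc1; 2.47% of all genes) and 0 higher (2.25% of all genes). With the replicate number as a block and the replicate 1 pair left out, 4 were lower (Kif11, Top2a, Kif20b and Mki67; 0.468% of all genes) and 0 higher (0.711% of all genes). With the replicate 2 or the replicate 3 pair left out of that fit, 0 mitotic genes and 0% of all genes were called in either direction, so these counts say nothing particular about the set. With array weights and no block, 0 of 42 were called in either direction, where 5.49% of all genes were lower and 7.44% higher.

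Other genes of the cell cycle were grouped in 8 lists, chosen by function with earlier results of these data known. In limma without the block, 0 of their genes passed in either direction; with the replicate block 1 was lower, Rbl1 (-0.94, adjusted p = 0.031), which encodes the pocket protein p107 of the repressive MuvB complex. The other kinetochore genes (26 of 29 measured) had replicate 1 highest in both groups for 26 of 26, with a median distance of 1.40 log2 units in naive and 0.83 in ionomycin arrays. The other spindle genes (26 of 27 measured) did so for 26 of 26, at 2.20 and 1.43. Bub3, a checkpoint protein that many cells also use between divisions, was 0.73 and 0.43 higher, and Stmn1, a microtubule destabilizer, 2.38 and 1.98.

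The 17 condensin and cohesin genes had replicate 1 highest in both groups for 17 of 17, with a median distance of 1.07 and 0.73 log2 units. The cohesin subunit Stag2 was 0.09 and 0.15 higher, and Pds5a, a cohesin regulator, 0.53 and 0.12. The G1/S and replication genes (35 of 38 measured) had replicate 1 highest in both groups for 33 of 35, at a median of 1.25 and 0.67. Ccnd2, a cyclin of G1 that responds to growth factors, was 0.23 higher and 0.02 lower, and its kinase partner Cdk6 0.15 and 0.13 higher. The median distance of this list was below that of the mitotic genes in both groups (2.50 and 1.76); the difference was not tested.

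Regulators of the set had smaller median distances than its members; the difference was not tested. Among MuvB, MYB, E2F, RB and NF-Y genes (20 of 21 measured), replicate 1 was highest in both groups for 15, at a median of 0.74 and 0.41 log2 units. Rb1, the retinoblastoma protein, had distances of 0.14 and -0.03 and Nfya, a subunit of NF-Y, of -0.12 and -0.23. The APC/C and its partners had 11 of 16 (0.19 and 0.10), with Anapc13 at 0.21 and 0.27 and Anapc5 at 0.85 and 0.85. The genes that control mitotic entry had 10 of 12 (0.44 and 0.33), with the phosphatase subunits Ppp1ca at 0.28 and 0.38 and Ppp2r1a at 0.04 and 0.14.

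For CDK inhibitors and antiproliferative genes, the ionomycin array was the higher one at all 3 numbers for 10 of 15 (35.8% of all genes). Their replicate 1 counts were near those of all genes: it was highest in both groups for 2 of 15 (18.2% of all genes) and lowest in both for 4 of 15 (34.1% of all genes), and the median distance was -0.23 in naive and 0.05 in ionomycin arrays. Cdkn1a, which encodes the inhibitor p21, had levels of 12.38, 12.96 and 13.07 in the naive arrays and 12.87, 13.06 and 13.02 in the ionomycin arrays. Replicate 1 was its lowest array in both groups, as it was for 34.1% of all genes. A relation to the mitotic genes was not tested. Ccng1, a target of p53, had distances of 0.24 and -0.11.

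**Figure D4:**
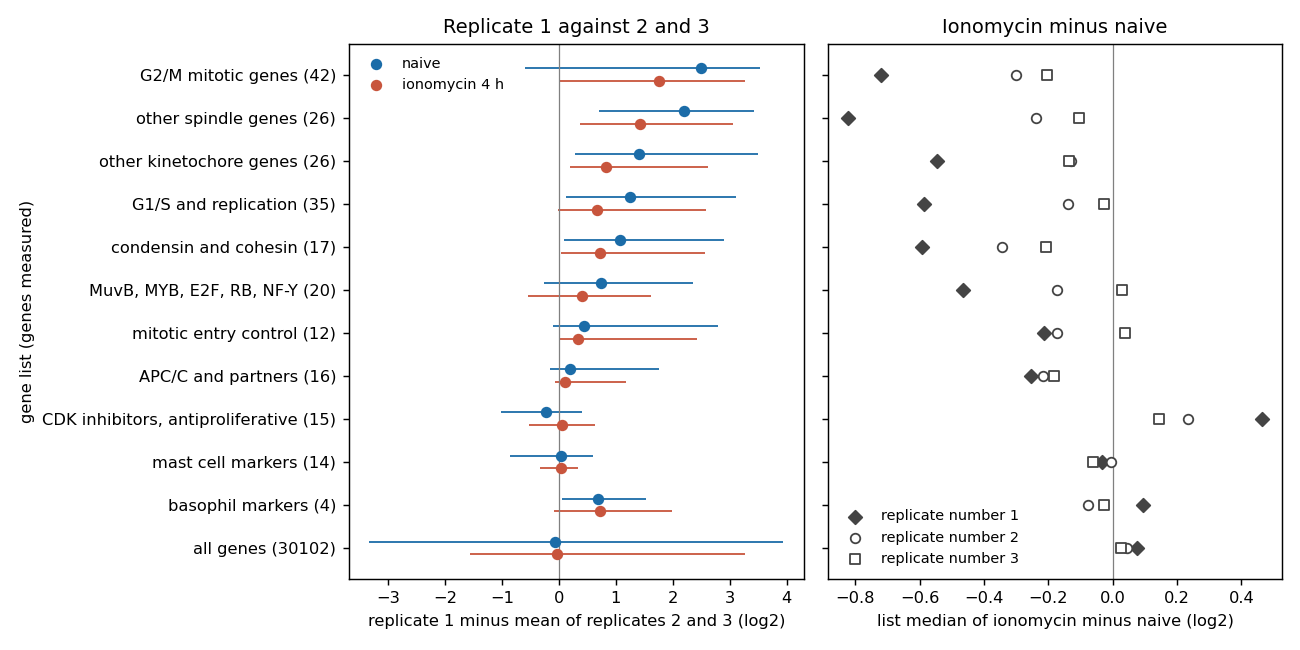
Left, median (point) and range over genes (line) of the log2 distance of replicate 1 from the mean of replicates 2 and 3 for 12 gene lists, in blue for naive and red for ionomycin; right, the list median of ionomycin minus naive at replicate numbers 1, 2 and 3. The G2/M mitotic genes have the highest median distance of the lists drawn (2.50 and 1.76), the mast cell markers lie at 0.05 and 0.04, and the 9 cell cycle lists differ most between the groups at number 1.

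Markers of other cells were set beside these values. Of the 14 measured mast cell markers, 14 were above background and 6 had replicate 1 highest in both groups; their summed linear signal was 97626 to 99565 in naive and 93245 to 95521 in ionomycin arrays. Ms4a2, the beta chain of the IgE receptor, lay between 11.97 and 13.01. Of the 4 basophil markers, 3 were above background, and their summed signal was 3364 to 5371 in naive and 3112 to 5327 in ionomycin arrays, highest on the replicate 1 array of each group. The basophil protease Mcpt8 was at 10.36 and 10.60 on the replicate 1 arrays against 9.03 to 9.20 on the other 4, and Prss34 at 10.35 and 10.70 against 8.60 to 8.94, while Cd200r3 and Itga2 were not highest on replicate 1 in both groups, and Itga2 lay below background on all 6 arrays. The part of basophils in the replicate 1 distance of the mitotic genes was not tested.

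The 10 macrophage and monocyte markers were all above background, with a summed signal of 5953 to 8065 in naive and 5114 to 7709 in ionomycin arrays, highest on replicate 2 of each group. Replicate 1 was highest in both groups for 1 of these 10 markers (18.2% of all genes) and lowest in both for 1, Cd68 (34.1% of all genes). The median distance of the list was 0.16 log2 units in naive and 0.10 in ionomycin arrays. Cd68, a lysosomal protein of macrophages that other myeloid cells also carry, was at 10.49 and 10.67 on the replicate 1 arrays and 11.37 to 11.99 on the other 4. Neutrophil markers (7 of 9 above background) summed to 822 to 873 in naive and 885 to 898 in ionomycin arrays, and lymphocyte markers (3 of 6) to 389 to 433 and 480 to 497. Replicate 1 was highest in both groups for 0 of 3 eosinophil, 0 of 6 dendritic cell, 0 of 6 lymphocyte, 1 of 4 erythroid and megakaryocyte, 1 of 5 stromal and 1 of 4 stem and progenitor markers. The part of any of these cells in the mitotic genes was not tested.

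The promoters of the set were read for the elements known from G2/M genes. Its members were chosen by function, so the shares of motifs below describe that choice and not the arrays. A window of 250 bases before to 50 after the annotated start was found for 39 of the 45 genes, among 27025 genes with a window (RefSeq, GRCm38.p6), and searched on both strands. The motifs were TTTGAA, the letters of the cell cycle genes homology region, its variant TTCGAA, a further variant, TTTAAA, and the NF-Y box CCAAT. None of these motifs contains another. TTTGAA was in 28 of 39 windows (71.8%) and in 18.1% of all windows, TTCGAA in 4 (10.3%, against 1.57%) and TTTAAA in 10 (25.6%, against 13.2%). CCAAT was in 30 of 39 (76.9%, against 37.9%), and 21 of 39 had it at least 2 times (53.8%, against 12.2%).

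Position set these windows apart as well. Within 100 bases before to 50 after the start, 28 of 39 member windows (71.8%) and 8.68% of all windows held TTTGAA or its variant TTCGAA, and in 27 of 39 a match began within 50 bases of the start. CCAAT matches lay further upstream: 33.3% of member windows had one beginning 75 to 51 bases before the start, against 7.28% of all windows. With the bases before the start alone, TTTGAA was in 13 of 39 member windows (33.3%, against 16.3% of all windows), so many of the members' matches lie at or after the annotated start. A match is a run of letters and does not show that a factor binds there.

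**Figure D5:**
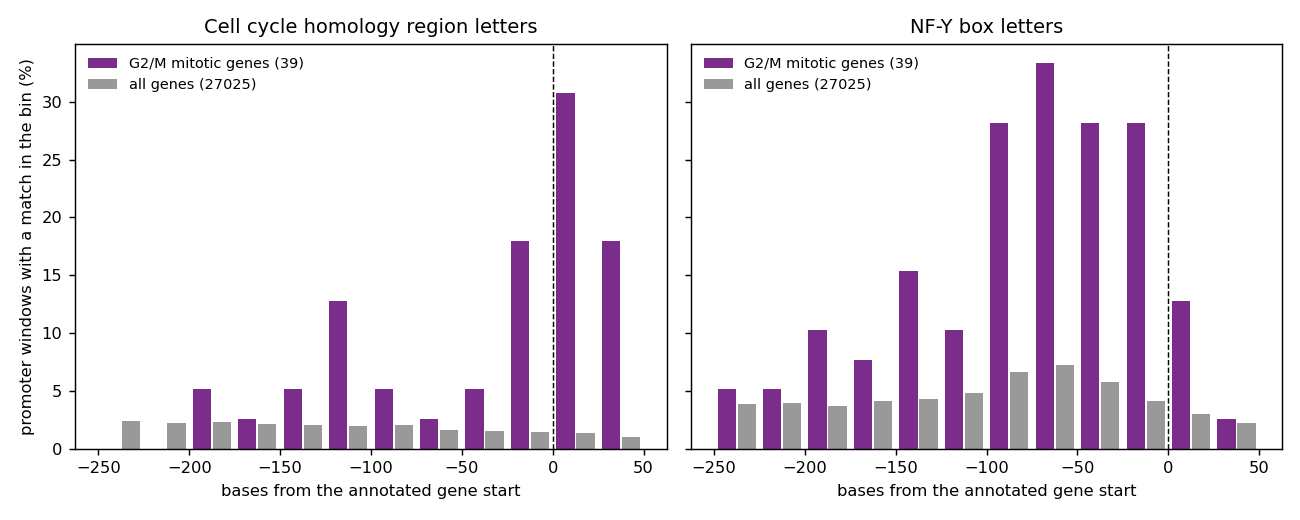
Share of promoter windows (y axis, percent) with a match beginning in each bin of 25 bases, by distance from the annotated gene start (x axis, dashed line at the start), for the 39 mitotic genes with a window (purple) and all 27025 genes (grey); left, the cell cycle genes homology region letters, right, the NF-Y box letters. Member matches of the first kind peak in the bin that follows the start (30.8%, against 1.37%) and those of the second kind 75 to 51 bases before it (33.3%).

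The upstream bases of 6 members are shown, 5′ to 3′ on the gene's strand, with the letters of the homology region (TTTGAA, and its variant TTCGAA) and of the NF-Y box in capitals. On the other strand the first reads TTCAAA, and the NF-Y box then reads ATTGG. Each run ends at the outermost annotated start of its gene. Kif11 (chr19:37376202-37376381, plus strand), Top2a (chr11:99024200-99024369, minus strand) and Mki67 (chr7:135716451-135716559, minus strand) are the genes that fell in the blocked fit. Ccnb2 (chr9:70421555-70421734, minus strand) is a B-type cyclin with 3 evenly spaced CCAAT boxes, Cdc20 (chr4:118437344-118437523, minus strand) is the member that was higher with ionomycin at all 3 numbers in the deposited values, and Cenpa (chr5:30666706-30666876, plus strand) is the member without a replicate 1 excess.
Kif11: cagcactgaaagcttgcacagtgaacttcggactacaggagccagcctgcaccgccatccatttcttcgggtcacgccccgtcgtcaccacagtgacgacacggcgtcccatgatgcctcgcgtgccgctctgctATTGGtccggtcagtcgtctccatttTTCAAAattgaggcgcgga
Top2a: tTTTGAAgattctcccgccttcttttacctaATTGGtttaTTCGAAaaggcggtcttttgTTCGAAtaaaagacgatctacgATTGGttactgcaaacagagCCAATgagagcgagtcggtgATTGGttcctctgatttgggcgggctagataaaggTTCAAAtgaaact
Mki67: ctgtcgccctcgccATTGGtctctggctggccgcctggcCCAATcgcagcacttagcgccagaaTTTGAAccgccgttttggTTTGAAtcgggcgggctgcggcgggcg
Ccnb2: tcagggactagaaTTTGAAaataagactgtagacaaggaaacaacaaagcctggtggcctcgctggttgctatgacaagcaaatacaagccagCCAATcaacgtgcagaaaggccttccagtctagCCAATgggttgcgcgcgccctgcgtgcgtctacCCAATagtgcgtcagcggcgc
Cdc20: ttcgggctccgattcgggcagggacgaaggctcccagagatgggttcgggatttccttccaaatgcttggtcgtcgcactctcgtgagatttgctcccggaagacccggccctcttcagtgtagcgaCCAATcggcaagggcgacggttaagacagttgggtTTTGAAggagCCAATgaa
Cenpa: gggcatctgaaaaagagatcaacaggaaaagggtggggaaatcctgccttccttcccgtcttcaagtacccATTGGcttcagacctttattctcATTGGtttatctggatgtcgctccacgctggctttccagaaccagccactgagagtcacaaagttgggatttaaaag

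The letters were set beside the values. Cdc20 and Kif11 both hold TTTGAA within 25 bases before the start, and their differences with ionomycin had opposite signs. Cenpa, with no replicate 1 excess, has 2 CCAAT boxes before the start and TTTGAA just after it. Of the 37 measured genes with a window, 29 hold TTTGAA or its variant TTCGAA. Their median replicate 1 distance was 2.49 log2 units in naive and 1.76 in ionomycin arrays, and the 8 that hold neither had 1.97 and 1.42. Among the 8 were Cks2 and Birc5, with small naive distances (0.38 and 0.80), and Nuf2 and Cenpe, with large ones (3.52 and 3.48). The ranges overlapped nearly in full (-0.60 to 3.53 and 0.38 to 3.52 in the naive group). The 19 genes with CCAAT at least 2 times had medians of 1.90 and 1.69, and the 18 with fewer had 2.50 and 1.81. Neither difference was tested.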

How the data were processed

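Total RNA of 6 BMMC samples was hybridised to whole-transcript Affymetrix arrays. The values are log2 signals as deposited by the authors, made with oligo per the submitters' processing notes. Its version is not given in the sources used here, nor is how arrays were summarized and normalized. The normalization can move small differences: across all genes the median was 0.05 in the deposited values, 0.01 once quantile normalized and -0.01 once centred. Of 65770 rows, 30439 have 1 symbol, 2146 several and 33185 none; a symbol repeated within a row was counted once and 827 rows were renamed through Entrez IDs. The row with the highest mean was kept for each of the 30102 genes. Differences and distances between arrays were computed within a probe row. Levels of different rows were compared for the background cut-off and for choices by highest signal, and were combined in medians and sums.

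The groups were compared with lmFit and eBayes of limma 3.58.1 in R 4.3.3, two-sided, Benjamini-Hochberg over all genes, threshold 0.05; the fits were checked on simulated data. The titles give both groups replicates 1 to 3. Same-numbered deviations from the group means correlated at 0.711, 0.476 and 0.469, so the blocked value is printed where it changes a call; numbers 2 and 3 crossed gave 0.481 and 0.524, so the pairing is mostly that of replicate 1. Of 248 genes in all lists, 232 were measured. The members and lists were chosen with earlier results of these data known. Values in every array are given for members that passed with or without the block, the 6 largest differences, the 6 largest replicate 1 distances in each direction and the 3 with the highest signal. Outside this rule they are also given for Ccna2, Ccnb2, Cks2 and Birc5, and for Cdc20, singled out after its values were seen. Each list is named by genes that passed or by its 2 with the highest signal. The number of arrays limits the precision. Alternatives were other blocks, array sets, normalizations, filters, eBayes settings, array weights and row choices. Promoter windows are the first listed per gene. No column of values was left out.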

Additional observations from a re-analysis of the deposited data

How the results depend on the processing

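In the fit without a block, 0 mitotic genes were lower and 0 higher, and both counts stayed at 0 under centring, quantile normalization, array weights, trend and robust options of eBayes, a filter on dim genes, testing all rows, averaging the rows of a gene, and each of the 6 arrays left out in turn. With single arrays left out, 0 to 55 of all 30102 genes were lower and 1 to 95 higher. The other settings, apart from array weights, called 9 to 32 of all genes lower and 69 to 96 higher. With so few calls over all genes, a member count of 0 in these fits says little about the set. With array weights 1654 of all genes were lower and 2240 higher, against 18 and 87 in the fit without a block, so the 0 with array weights stands beside many more calls. Fits that took out the replicate number or the replicate 1 arrays gave more. The replicate block gave 3 lower (0.110% of all genes) and the block of 2 levels 7 (2.47%). Without both replicate 1 arrays 3 were lower (1.43%) and 1 higher (1.41%). The replicate block without the replicate 1 pair, an alternative chosen after seeing the data, gave 4 lower (0.468%). Over the 167 measured list genes of the other pathways, the counts lower and higher were 0 and 0 without a block (0.0598% and 0.289% of all genes). They were 1 and 0 with the replicate block (0.110% and 0.395%) and 18 and 2 with the block of 2 levels (2.47% and 2.25%). Without both replicate 1 arrays they were 7 and 3 (1.43% and 1.41%). The replicate block without the replicate 1 pair gave 2 and 3 (0.468% and 0.711%), and array weights 13 and 8 (5.49% and 7.44%). The filter on dim genes gave 0 and 1 of 162 (20 and 96 of all 19221 genes kept). Trend and robust settings gave 0 and 1 (9 and 78 of all 30102 genes). The cause was not tested. The median difference of the mitotic genes ranged from -1.04 (without ionomycin replicate 1) to 0.35 (without naive replicate 1), since leaving out 1 replicate 1 array unbalances the groups; 38 of 42 genes changed sign without naive replicate 1. Left out in turn, single arrays moved Mki67 from -1.97 to 0.14, Top2a from -1.70 to 0.13, Bub1 from -1.53 to 0.63, Ttk from -1.27 to 0.24, Cenpa from -0.045 to 0.33, Cenpe from -1.52 to 0.60, Nuf2 from -1.57 to 0.57, Ube2c from -0.62 to 0.59, Kif11 from -2.11 to 0.029, Hmmr from -1.52 to 0.68, Ect2 from -1.44 to 0.22, Kif20b from -1.68 to -0.16 and Cdc20 from -0.13 to 0.98. Without both replicate 1 arrays, and in the blocked fit without that pair, Cenpa was at -0.048 and Ube2c at 0.0032; with array weights Ube2c was at 0.036. After centring, 0 members were higher at all 3 numbers. TTTGAA was in 33.3% of member windows with upstream bases alone. Replicate 1 was highest in both groups for 41 of 42 genes under quantile normalization, centring, the filter on dim genes and the mean of rows, and the members lower at all 3 numbers were 31 to 35 in those settings.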

Other observations

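The rows of Foxm1 and Ccnf carry a second symbol each, so their signal cannot be given to the mitotic gene alone. The row of Foxm1, the forkhead factor that drives G2/M genes, is shared with 4933413G19Rik and read 8.98, 6.89 and 6.76 in naive replicates 1, 2 and 3 and 8.10, 6.71 and 6.75 in the ionomycin replicates. Replicate 1 was the highest array of each group. The row of Ccnf, the cyclin F subunit of a ubiquitin ligase, is shared with Mir5134 and read 9.22, 7.93 and 7.87, then 8.97, 8.62 and 8.69; it differed between ionomycin and naive by -0.25, 0.69 and 0.82 at numbers 1, 2 and 3.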
